A study of Mus musculus with 9 samples.

Results

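The genes described here make, move, break down and sense prostaglandins. They are 10 genes of the 49671 in the deposited count table, taken by symbol: the transporters Slco2a1 and Abcc4, the cyclooxygenases Ptgs1 and Ptgs2, the prostaglandin E synthases Ptges, Ptges2 and Ptges3, the breakdown enzyme Hpgd, and the receptors Ptger1 and Ptger4. The list was drawn up with their levels in these groups in view, so it counts as selected on the CPM levels and fold changes of these same libraries. Their fold changes and adjusted p-values are therefore given as descriptions and are no independent evidence. RNA was sequenced from Panc02 cells, a mouse pancreatic ductal adenocarcinoma line, in 3 groups of 3 libraries each. KO_1E7 was a CRISPR-edited clone whose genotype is labelled VPAC2 knockout (VPAC2, encoded by Vipr2, is a receptor that binds vasoactive intestinal peptide). CRISPR_1G2 was another clone, whose genotype is labelled CRISPR-wild type although the design text counts both clones as knockout cells, and parental was the unedited line, labelled wild type. All were grown in the same medium with 10% fetal bovine serum and no treatment is labelled. KO_1E7 was a single clone, so loss of VPAC2 and other differences of that clone cannot be told apart, and the same holds for CRISPR_1G2 and its editing. No label says that the 3 libraries of a group were separate cultures, so p-values measure the spread between these libraries, which may be technical.

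Prostaglandins are lipid signals made from arachidonic acid, which phospholipase A2 enzymes free from membranes. The cyclooxygenases turn it into prostaglandin H2, and terminal synthases turn that into individual prostaglandins such as E2. The exporter ABCC4 carries prostaglandin E2 out of the cell and the transporter SLCO2A1 takes it up, after which HPGD, a cytosolic dehydrogenase, inactivates it. Outside the cell prostaglandin E2 acts through the EP receptors, among them EP1 and EP4, and EP4 signals by raising cyclic AMP, as VPAC2 also does. Cyclooxygenase-2, the inducible enzyme, is often raised in pancreatic cancer.

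Promoter windows from RefSeq on GRCm38.p6 are shown for 4 genes: Slco2a1 and Ptger4, which were called higher in KO_1E7, and the cyclooxygenase pair. Ptgs2 varied more than Ptgs1 between the libraries of CRISPR_1G2 and of parental, and less than Ptgs1 in KO_1E7. Each window runs from 250 bases before to 50 bases after the annotated start, in the direction of transcription. Capitals mark matches to the motifs searched.
Slco2a1, chr9:103008237-103008536, plus strand: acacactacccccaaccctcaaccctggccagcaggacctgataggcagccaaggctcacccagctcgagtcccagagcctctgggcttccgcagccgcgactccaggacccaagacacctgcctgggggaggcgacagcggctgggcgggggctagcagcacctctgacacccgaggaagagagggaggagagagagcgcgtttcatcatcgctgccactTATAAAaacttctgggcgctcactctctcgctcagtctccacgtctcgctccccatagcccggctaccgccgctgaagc
Ptger4, chr15:5244138-5244437, minus strand: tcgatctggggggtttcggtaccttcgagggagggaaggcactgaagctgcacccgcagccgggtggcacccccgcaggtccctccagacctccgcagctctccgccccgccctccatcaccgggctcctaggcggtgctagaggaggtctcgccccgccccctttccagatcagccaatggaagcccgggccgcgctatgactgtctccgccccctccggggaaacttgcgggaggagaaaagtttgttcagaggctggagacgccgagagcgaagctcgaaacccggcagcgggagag
Ptgs1, chr2:36230176-36230475, plus strand: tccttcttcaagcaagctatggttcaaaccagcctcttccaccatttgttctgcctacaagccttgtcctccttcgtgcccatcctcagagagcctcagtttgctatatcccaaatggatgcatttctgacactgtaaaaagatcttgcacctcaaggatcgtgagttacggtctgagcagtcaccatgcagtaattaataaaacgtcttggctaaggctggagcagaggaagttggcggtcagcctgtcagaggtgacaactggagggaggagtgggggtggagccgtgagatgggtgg
Ptgs2, chr1:150099781-150100080, plus strand: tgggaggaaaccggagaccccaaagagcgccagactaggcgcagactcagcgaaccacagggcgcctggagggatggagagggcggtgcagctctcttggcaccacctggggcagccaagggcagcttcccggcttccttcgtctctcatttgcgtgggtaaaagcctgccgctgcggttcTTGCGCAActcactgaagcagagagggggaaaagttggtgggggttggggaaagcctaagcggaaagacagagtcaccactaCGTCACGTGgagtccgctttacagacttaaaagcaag
The motifs searched on both strands were the cyclic AMP response element TGACGTCA, its half-site TGACG, the E-box CACGTG, the C/EBP palindrome TTGCGCAA and the TATA box TATAAA. Slco2a1 held TATAAA at -29 from the RefSeq start, a motif present in 13.62% of 32851 windows of the same length. Ptgs2 held TTGCGCAA at -69, present in 0.1826% of windows. It also held the half-site on the opposite strand, read as CGTCA at base 264 of the window and present in 20.81% of windows. This overlapped CACGTG at base 267, present in 7.15% of windows. Their first bases lay 13 and 16 bases after the RefSeq start. Ptger4 and Ptgs1 held none of these letters. The whole element TGACGTCA, present in 1.79% of windows, was in the window of 0 of the 9 genes that had one. Of the others, Ptges3 held the half-site, Ptges2 and Abcc4 the E-box, and Hpgd TATAAA. The table held no window for Ptger1. The Slco2a1 window lies inside the deposited span of that gene, which begins at base 102988712. A match describes the letters only.

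Library depth ranged from 27898705 to 51878289 gene counts. Levels are given as CPM, counts scaled to a common library size with TMM normalization. In edgeR's quasi-likelihood test over the 15766 genes that passed a filter on low counts, a gene was called at a Benjamini-Hochberg adjusted p of 0.05 over all of them. Vipr2, the edited gene, had 1, 2 and 1 counts in KO_1E7, 1, 13 and 12 counts in CRISPR_1G2, and 6, 3 and 12 counts in parental. It was rare everywhere, so its counts check the labels weakly. The third library of each group carries the word NSG in its deposited name, whose meaning the labels do not give, while the others carry date-like names. Parental 1 and KO_1E7 1 share such a name, as do parental 2 and CRISPR_1G2 1, and KO_1E7 2 and CRISPR_1G2 2 each have one of their own. CRISPR_1G2 3 and parental 3 stood apart from the other libraries of their groups: the p53 target genes Mdm2 and Cdkn1a were high there, and 15.32% of the counts of parental 3 lay on CT010467.1, against 0.465% to 1.04% in the others. KO_1E7 2 also stood apart, with Igf2 at 80.7 CPM against 5.54 and 2.81 CPM in KO_1E7 1 and 3. The duct epithelial markers were present, with 8 of 8 tested and a summed level of 1284 to 2107 CPM in KO_1E7, 894 to 2112 CPM in CRISPR_1G2 and 1357 to 2051 CPM in parental. Mesenchymal markers summed to 2904 to 4023 CPM in KO_1E7, 2172 to 3939 CPM in CRISPR_1G2 and 3571 to 4108 CPM in parental.

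The clearest difference among the genes was in the uptake transporter Slco2a1, which was high in KO_1E7 and low in CRISPR_1G2. Slco2a1 (ENSMUSG00000032548, plus strand of chromosome 9, 102988712 to 103096002 on GRCm38) stood at 47.2, 66.3 and 56.9 CPM in KO_1E7, 2.14, 3.37 and 1.56 CPM in CRISPR_1G2, and 28.3, 24.7 and 19.9 CPM in parental. The 3 groups did not overlap, and its highest library had 42.6 times the level of its lowest, the widest range of the 9 genes tested. The log2 fold change was 1.23 ± 0.27 (SE, 3 libraries a group, edgeR adjusted p = 0.0381) in KO_1E7 against parental, a 2.34-fold higher level. It was -3.36 ± 0.30 (edgeR adjusted p = 0.00250) in CRISPR_1G2 against parental, where the level was 10.3-fold lower. Between the clones, KO_1E7 against CRISPR_1G2, it was 4.59 ± 0.31 (edgeR adjusted p = 0.000252). Both comparisons with parental share the parental libraries. By size of its change, Slco2a1 was number 26 of the 40 genes called in CRISPR_1G2 against parental.

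Both differences that involve CRISPR_1G2 were called under all alternatives run, but the call in KO_1E7 against parental was lost without any 1 of 7 libraries. These were the 3 parental libraries, the 3 KO_1E7 libraries and CRISPR_1G2 1, with adjusted p up to 0.147 and log2 fold changes up to 1.35. Within the dated libraries alone the log2 fold changes were 1.11 (KO_1E7 against parental), -3.26 (CRISPR_1G2 against parental) and 4.37 (KO_1E7 against CRISPR_1G2), with edgeR adjusted p-values of 0.0301, 0.00764 and 0.00109. Among the acinar markers, Cela1 was higher in KO_1E7, at 13.1, 7.37 and 12.0 CPM in KO_1E7, 1.09, 2.11 and 1.01 CPM in CRISPR_1G2, and 2.08, 2.68 and 2.14 CPM in parental. Within KO_1E7, Cela1 was lowest in KO_1E7 2, the library highest in Slco2a1. Prss2, of the same list, ran the other way with few counts: 1 in KO_1E7, 8 in CRISPR_1G2 and 15 in parental. Cela1 was the single acinar gene of the 4 found that was tested. The summed level of the 4, most of it Cela1, was 7.39 to 13.2 CPM in KO_1E7, 1.16 to 2.14 CPM in CRISPR_1G2 and 2.24 to 2.87 CPM in parental. Of the 8 duct epithelial markers, Krt7 was called lower in KO_1E7 against parental (log2 fold change -2.50) and Krt7 (-3.23) and Epcam (-2.83) in KO_1E7 against CRISPR_1G2. In each of these comparisons 3 of the 8 had estimates above 0, among them Cdh1 (0.93 and 1.40), which edgeR did not call. DESeq2 called 0 higher and 2 lower against parental and 1 higher and 2 lower against CRISPR_1G2. Over all tested genes edgeR called 5.42% and 12.7% in these comparisons, and DESeq2 15% and 21.5%. Of the 6 mesenchymal markers, Sparc was called higher in KO_1E7 against parental (0.84). In KO_1E7 against CRISPR_1G2 Sparc (1.17) and Col1a2 (3.67) were called higher and Cdh2 (-1.55) and Col1a1 (-1.59) lower. In CRISPR_1G2 against parental, edgeR called 0 genes of either list. There 0 duct epithelial and 3 mesenchymal markers had an unadjusted p below 0.05, and DESeq2 called 0 and 1. Over all tested genes in that comparison 7.73% had such a p, edgeR called 0.254% and DESeq2 1.5%. The part of these markers in the Slco2a1 result was not tested.

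Abcc4, the exporter, was lower in KO_1E7 than in CRISPR_1G2. Abcc4 (ENSMUSG00000032849, minus strand of chromosome 14, 118482692 to 118706219) stood at 45.1, 50.7 and 51.5 CPM in KO_1E7, 96.8, 102 and 112 CPM in CRISPR_1G2, and 95.7, 56.9 and 131 CPM in parental. All KO_1E7 libraries lay below all others, with parental 2 the nearest to them. The log2 fold change was -1.08 ± 0.26 in KO_1E7 against CRISPR_1G2 (edgeR adjusted p = 0.0301), a call lost without any 1 library other than parental 2 or 3 (adjusted p up to 0.114). Against parental, the KO_1E7 estimate was -0.95 ± 0.26 and did not pass (edgeR adjusted p = 0.0681), although it was called without parental 2 (adjusted p = 0.0281), with a block for the name in the header (0.0295) and with DESeq2 (adjusted p = 0.0132). In CRISPR_1G2 against parental it was 0.13 ± 0.26 (edgeR adjusted p = 0.969).

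Per length, the balance of the transporters differed between the groups. The ratio of Slco2a1 to Abcc4 in RPKM, the CPM per kilobase of exon, was 0.442, 0.554 and 0.468 in KO_1E7, 0.00936, 0.0139 and 0.00587 in CRISPR_1G2, and 0.125, 0.183 and 0.0642 in parental. In RPKM, Abcc4 was thus the more abundant of the pair in every library, by a margin that was narrowest in KO_1E7. In KO_1E7 this order depends on the deposited exon lengths, 13545 bases for Slco2a1 and 5729 for Abcc4. In CPM, Slco2a1 was the higher there, at 47.2, 66.3 and 56.9 against 45.1, 50.7 and 51.5 for Abcc4. Abcc4 was the higher in CPM in every CRISPR_1G2 and parental library. The ratio follows from the genes' own values and was not tested.

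**Figure D1:**
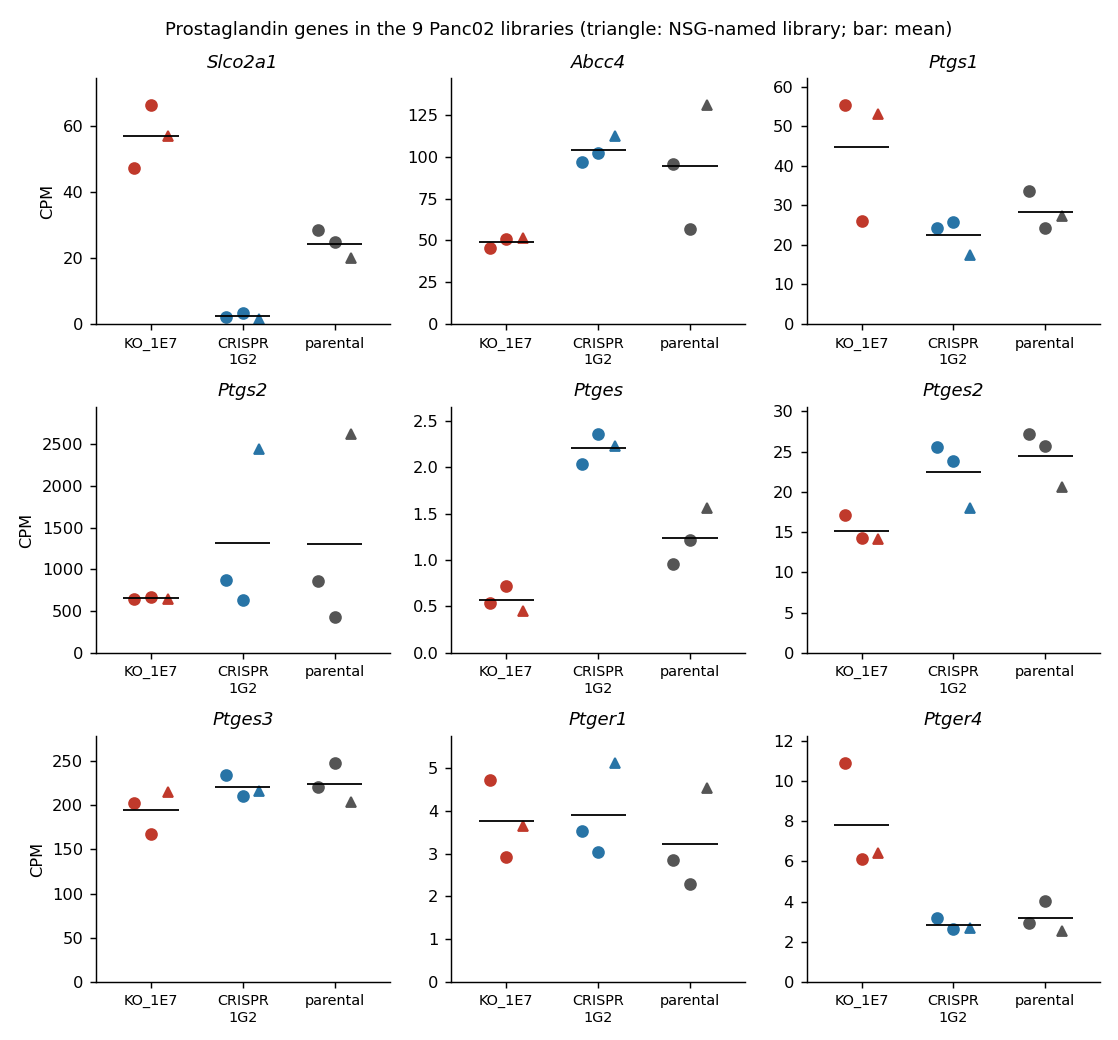
Level in CPM (y axes, each from 0) of the 9 genes that were tested, with 1 point per library, triangles for the NSG-named libraries and a bar at the mean of each group of 3. Slco2a1 separates all 3 groups, at 47.2 to 66.3 CPM in KO_1E7, 1.56 to 3.37 CPM in CRISPR_1G2 and 19.9 to 28.3 CPM in parental, while for Ptgs2 the NSG-named libraries of CRISPR_1G2 and parental lie far above the rest.

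The cyclooxygenases behaved differently from each other. Ptgs2, which encodes the inducible cyclooxygenase-2 (ENSMUSG00000032487, plus strand of chromosome 1, 150100031 to 150108227), was the most abundant of the 10 genes per length in each group mean. It stood at 644, 668 and 645 CPM in KO_1E7, 879, 639 and 2441 CPM in CRISPR_1G2, and 863, 435 and 2629 CPM in parental. The 3 KO_1E7 libraries were nearly equal, whereas CRISPR_1G2 3 and parental 3 were far above their groups, so that the groups overlapped. No comparison was called: the log2 fold change was -1.005 ± 0.66 in KO_1E7 against parental (edgeR adjusted p = 0.399), -1.02 ± 0.66 in KO_1E7 against CRISPR_1G2 (0.350) and 0.01 ± 0.66 in CRISPR_1G2 against parental (0.999). Without parental 3 the estimate in KO_1E7 against parental was 0.02 (edgeR adjusted p = 0.991).

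The libraries of CRISPR_1G2 and parental that were high in Ptgs2 were the NSG-named ones. A fit with a mean for each group and kind of name was added because the high values had been seen, and it sets 1 library against 2 in each group, so its values are given with no test. NSG-named against dated, the log2 difference in Ptgs2 was -0.02 ± 0.40 (SE) in KO_1E7, 1.69 ± 0.39 in CRISPR_1G2 and 2.02 ± 0.39 in parental. Within the dated libraries the log2 fold change of Ptgs2 was 0.03 ± 0.33 in KO_1E7 against parental (edgeR adjusted p = 0.968) and -0.19 ± 0.33 in KO_1E7 against CRISPR_1G2 (0.735).

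The libraries high in Ptgs2 were also those high in the p53 target genes. Mdm2, which restrains p53, stood at 759, 838 and 761 CPM in KO_1E7, 872, 1173 and 3910 CPM in CRISPR_1G2, and 792, 646 and 1857 CPM in parental. Cdkn1a, which encodes the cell cycle inhibitor p21, stood at 40.5, 44.2 and 34.1 CPM in KO_1E7, 64.6, 72.9 and 480 CPM in CRISPR_1G2, and 43.2, 31.8 and 189 CPM in parental. These genes were chosen after their values were seen, and their part in the Ptgs2 result was not tested.

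**Figure D2:**
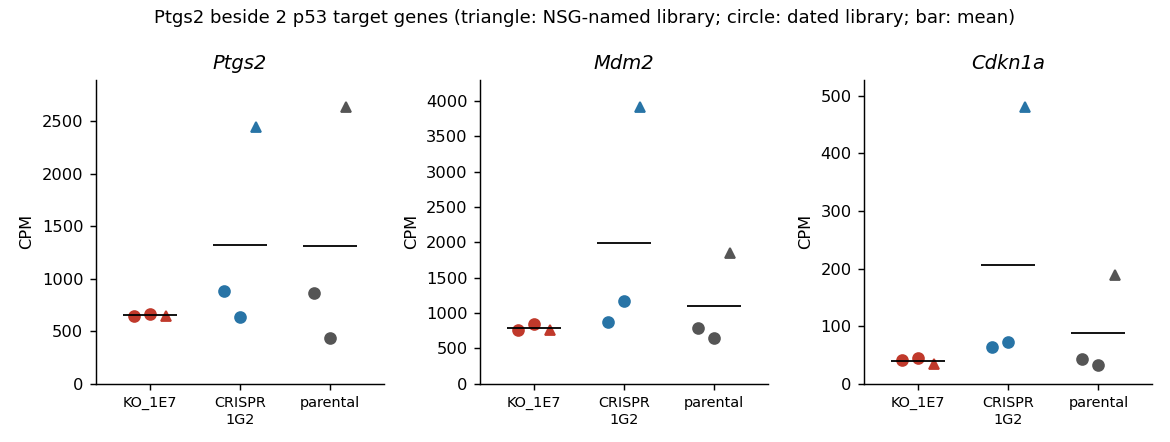
Level in CPM (y axes from 0) of Ptgs2, Mdm2 and Cdkn1a in each library, with triangles for the NSG-named library, circles for the dated ones and a bar at the mean of each group of 3. For all of these genes the NSG-named library is the highest of CRISPR_1G2 and of parental, at 2441 and 2629 CPM for Ptgs2, while the KO_1E7 libraries lie together at 644 to 668 CPM.

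Ptgs1, which encodes the constitutive cyclooxygenase-1 (ENSMUSG00000047250, plus strand of chromosome 2, 36230426 to 36252272), stood at 55.4, 26.0 and 53.01 CPM in KO_1E7, 24.2, 25.7 and 17.3 CPM in CRISPR_1G2, and 33.6, 24.2 and 27.2 CPM in parental. KO_1E7 1 and 3 were the highest libraries and KO_1E7 2 lay within the parental range. The log2 fold change was 1.00 ± 0.29 in KO_1E7 against CRISPR_1G2 and narrowly missed the threshold (edgeR adjusted p = 0.0577). It passed without KO_1E7 2 (adjusted p = 0.0133) and with DESeq2 (adjusted p = 0.0118). Against parental, the KO_1E7 estimate was 0.66 ± 0.29 (edgeR adjusted p = 0.212), called without parental 3, CRISPR_1G2 3 and KO_1E7 2 together (adjusted p = 0.00352) and with a block for the name in the header (0.0346), and in CRISPR_1G2 against parental -0.34 ± 0.29 (edgeR adjusted p = 0.882). The ratio of Ptgs2 to Ptgs1 in RPKM was 9.85, 21.8 and 10.3 in KO_1E7, 30.8, 21.1 and 119 in CRISPR_1G2, and 21.8, 15.2 and 82.0 in parental. Cyclooxygenase-2 was thus the dominant cyclooxygenase transcript in all 9 libraries.

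Of the prostaglandin E synthases, the inducible enzyme gene Ptges was scarce everywhere and lowest in KO_1E7. Ptges (ENSMUSG00000050737, minus strand of chromosome 2, 30889471 to 30929863), which encodes microsomal prostaglandin E synthase-1, stood at 0.537, 0.720 and 0.448 CPM in KO_1E7, 2.03, 2.36 and 2.23 CPM in CRISPR_1G2, and 0.956, 1.21 and 1.56 CPM in parental. The 3 groups did not overlap, with KO_1E7 lowest and CRISPR_1G2 highest, the opposite of the order of Slco2a1. The log2 fold change was -1.94 ± 0.31 in KO_1E7 against CRISPR_1G2 (edgeR adjusted p = 0.00697), called under all alternatives run. It was -1.11 ± 0.31 in KO_1E7 against parental (edgeR adjusted p = 0.0682, and 0.0150 with DESeq2) and 0.83 ± 0.30 in CRISPR_1G2 against parental (edgeR adjusted p = 0.564), and neither passed in the main edgeR fit. Of 20 alternatives, 2 called it in KO_1E7 against parental, DESeq2 among them, and 0 in CRISPR_1G2 against parental.

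Ptges2 was more abundant and differed by less. Ptges2 (ENSMUSG00000026820, plus strand of chromosome 2, 32395896 to 32405772), which encodes microsomal prostaglandin E synthase-2, stood at 17.1, 14.3 and 14.2 CPM in KO_1E7, 25.6, 23.8 and 18.04 CPM in CRISPR_1G2, and 27.2, 25.6 and 20.6 CPM in parental. Each KO_1E7 library lay below every other library. The log2 fold change was -0.69 ± 0.18 in KO_1E7 against parental (edgeR adjusted p = 0.0629) and -0.57 ± 0.18 in KO_1E7 against CRISPR_1G2 (edgeR adjusted p = 0.0778). Neither passed with all libraries, but both were called within the dated libraries (adjusted p = 0.0222 and 0.0216), without CRISPR_1G2 3 (0.0282 and 0.0330) and with DESeq2 (0.00738 and 0.0258). In CRISPR_1G2 against parental it was -0.12 ± 0.18 (edgeR adjusted p = 0.955).

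Ptges3, which encodes p23, a cochaperone of HSP90 also known as cytosolic prostaglandin E synthase, was the steadiest of the genes. Ptges3 (ENSMUSG00000071072, plus strand of chromosome 10, 128058954 to 128077272) stood at 202, 168 and 215 CPM in KO_1E7, 234, 211 and 217 CPM in CRISPR_1G2, and 221, 249 and 203 CPM in parental. The groups overlapped, and its highest library had 1.48 times the level of its lowest. The log2 fold changes were -0.20 ± 0.14 in KO_1E7 against parental (edgeR adjusted p = 0.407), -0.18 ± 0.14 in KO_1E7 against CRISPR_1G2 (0.425) and -0.02 ± 0.14 in CRISPR_1G2 against parental (0.991). A copy, Ptges3-ps, had 5340 counts over the 9 libraries, so the counts of Ptges3 are uncertain to that extent. Of 7 tested genes of HSP90 and its other partners, 0 were called in any comparison by edgeR or DESeq2, and 0 had an unadjusted p below 0.05. Of all tested genes edgeR called 5.42% in KO_1E7 against parental, 0.254% in CRISPR_1G2 against parental and 12.7% in KO_1E7 against CRISPR_1G2, so 0 of 7 is near the background. Among them Hsp90ab1, the most abundant, stood at 4681, 4264 and 4696 CPM in KO_1E7, 4556, 4237 and 1093 CPM in CRISPR_1G2, and 3930, 4739 and 1360 CPM in parental, so the libraries high in Ptgs2 were low in Hsp90ab1.

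Ptgs1, Ptges and Ptges2 all lie on chromosome 2, whose genes as a whole were somewhat lower in KO_1E7. The median log2 fold change of its 1220 tested genes was -0.19 in KO_1E7 against parental, with 6 called higher and 54 lower, and -0.27 in KO_1E7 against CRISPR_1G2. Over all tested genes these medians were -0.03 in both. The estimates of Ptges and Ptges2 lay on the side of the chromosome, whereas those of Ptgs1 lay the other way, at 0.66 and 1.00. Abcc4 lies on chromosome 14, whose median was 0.29 in KO_1E7 against parental and 0.17 in KO_1E7 against CRISPR_1G2, the other way from the gene. For chromosome 9, which holds Slco2a1, the medians were 0.13 and 0.17. Chromosome 8, which holds Hpgd and Ptger1, had the largest medians of these chromosomes, 0.31 with 76 genes called higher and 9 lower against parental, and 0.34 against CRISPR_1G2. For chromosome 15, which holds Ptger4, they were -0.07 and -0.06. The part of such shifts in the values of single genes was not tested.

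**Figure D3:**
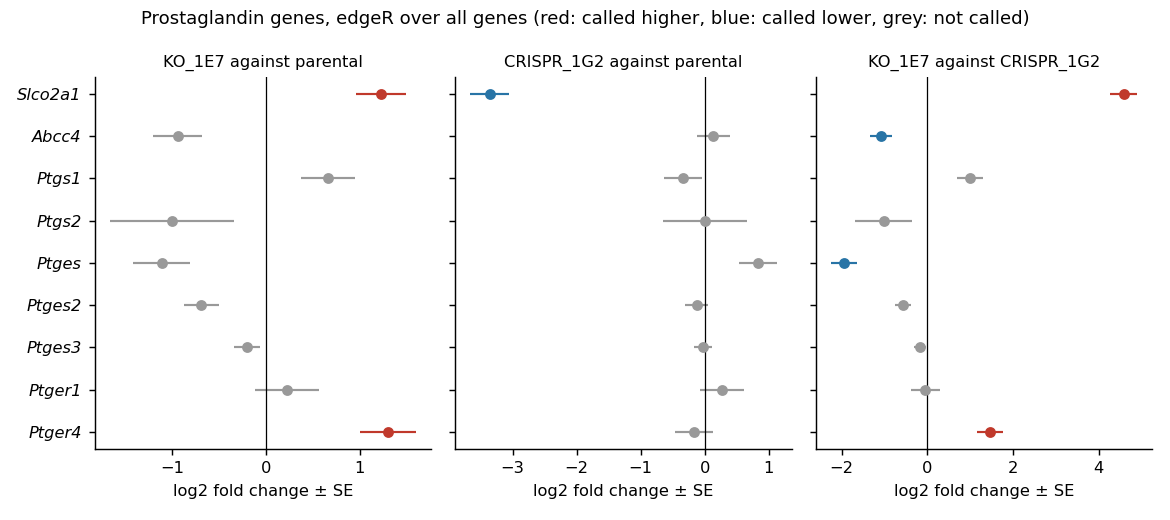
Log2 fold change (x axes, bars ± 1 SE from edgeR, 3 libraries per group) of the 9 tested genes in KO_1E7 against parental, CRISPR_1G2 against parental and KO_1E7 against CRISPR_1G2, with red and blue for genes called higher and lower and grey for those not called. Slco2a1 has the largest estimate in CRISPR_1G2 against parental (-3.36) and in KO_1E7 against CRISPR_1G2 (4.59), and Ptgs2 has the widest error (0.66).

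Hpgd, the inactivating dehydrogenase (ENSMUSG00000031613, plus strand of chromosome 8, 56294585 to 56321043), was all but undetected. It had 0 counts in every KO_1E7 and parental library, and 0, 1 and 1 counts in CRISPR_1G2. A count of 0 over a group allows up to 0.0247 CPM in KO_1E7 and 0.0276 CPM in parental, taking 3 counts as the limit for counting error only. It was too low to test. Later steps of breakdown were detected: Ptgr1 and Ptgr2 encode prostaglandin reductases, which act on prostaglandins after HPGD has oxidized them. Ptgr1 stood at 0.707, 1.19 and 0.627 CPM in KO_1E7, 2.11, 2.43 and 2.32 CPM in CRISPR_1G2, and 3.66, 3.04 and 2.11 CPM in parental. KO_1E7 lay below the other groups, and the log2 fold change of Ptgr1 was -1.79 ± 0.34 against parental (edgeR adjusted p = 0.0249) and -1.42 ± 0.33 against CRISPR_1G2 (edgeR adjusted p = 0.0271). Leaving out 1 library ended the first call in 5 of 9 cases and the second in 4 of 9, with adjusted p up to 0.131. Those libraries were KO_1E7 1 and 3 and CRISPR_1G2 2 in both, with parental 1 and 2 in the first and CRISPR_1G2 1 in the second. Ptgr2 stood at 67.5, 61.7 and 63.2 CPM in KO_1E7, 48.6, 44.5 and 37.0 CPM in CRISPR_1G2, and 51.1, 48.4 and 37.0 CPM in parental. It was called higher in KO_1E7 against CRISPR_1G2 by a narrow margin (0.57 ± 0.16, edgeR adjusted p = 0.0493), a call lost without any 1 library other than parental 3, and did not pass in KO_1E7 against parental (0.50 ± 0.16, 0.103).

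The receptor gene Ptger4 was the second gene called higher in KO_1E7. Ptger4 (ENSMUSG00000039942, minus strand of chromosome 15, 5206661 to 5244187), which encodes EP4, stood at 10.9, 6.101 and 6.45 CPM in KO_1E7, 3.20, 2.62 and 2.66 CPM in CRISPR_1G2, and 2.95, 4.03 and 2.53 CPM in parental. All 3 KO_1E7 libraries were above all others and KO_1E7 1 was the highest. The log2 fold change was 1.30 ± 0.30 in KO_1E7 against parental (edgeR adjusted p = 0.0419), 1.47 ± 0.30 in KO_1E7 against CRISPR_1G2 (0.0171) and -0.17 ± 0.30 in CRISPR_1G2 against parental (0.967). The call against parental was lost without any 1 library other than CRISPR_1G2 3, with adjusted p up to 0.150, and the call against CRISPR_1G2 without KO_1E7 1 (0.0685), KO_1E7 3 (0.0518) or CRISPR_1G2 2 (0.0629). Ptger4 shares 1015 of its 6648 exon bases with the opposite-strand gene Gm15937, which had 9 counts over all libraries, and 82 with Ttc33, also on the opposite strand, which had 8786 counts against 1528 for Ptger4. The counts of Ptger4 are uncertain to that extent.

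Ptger1, which encodes EP1 (ENSMUSG00000019464, plus strand of chromosome 8, 83666678 to 83672753), stood at 4.72, 2.92 and 3.64 CPM in KO_1E7, 3.52, 3.03 and 5.13 CPM in CRISPR_1G2, and 2.84, 2.29 and 4.53 CPM in parental. The groups overlapped, and the log2 fold changes were 0.22 ± 0.34 in KO_1E7 against parental (edgeR adjusted p = 0.739), -0.05 ± 0.34 in KO_1E7 against CRISPR_1G2 (0.939) and 0.27 ± 0.34 in CRISPR_1G2 against parental (0.932). The library kit does not mark strand, and the values of Ptger1 are uncertain for that reason. Of 8 other prostanoid receptor genes and related genes, 2 passed the filter on low counts, Ptger2 and Ptgfrn, and 0 were called in any comparison. Of all tested genes 5.42% were called in KO_1E7 against parental, 0.254% in CRISPR_1G2 against parental and 12.7% in KO_1E7 against CRISPR_1G2. A count of 0 of 2 is thus near the background. Ptgfrn, which encodes a membrane regulator of the prostaglandin F2 receptor, averaged 323 ± 31.8 CPM in KO_1E7, 262 ± 78.1 CPM in CRISPR_1G2 and 236 ± 75.9 CPM in parental.

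Counted over the 10 genes, of which 9 were tested, KO_1E7 against parental gave 2 called higher and 0 lower. The background was 2.54% of tested genes called higher and 2.87% lower, 5.42% in all. By edgeR at an unadjusted p of 0.05 the counts were 2 higher and 3 lower, and DESeq2 also called 2 higher and 3 lower. Over all tested genes, 23.7% had such an unadjusted p and DESeq2 called 15.0%. CRISPR_1G2 against parental gave 0 called higher and 1 lower, against a background of 0% higher and 0.254% lower. KO_1E7 against CRISPR_1G2 gave 2 called higher and 2 lower, against 5.71% and 7.03%, 12.7% in all. The same comparisons chose the genes, so nothing is read from these shares. The groups did not overlap for 5 of 9 genes in KO_1E7 against parental, 2 higher and 3 lower. Of all tested genes 34.4% did not, 17.2% higher and 17.3% lower. They did not overlap for 2 of 9 in CRISPR_1G2 against parental, 1 higher and 1 lower, against 13.1% of all tested genes, 6.64% higher and 6.45% lower. They did not overlap for 6 of 9 in KO_1E7 against CRISPR_1G2, 3 higher and 3 lower, against 38.6% of all tested genes, 19.2% higher and 19.4% lower. The median log2 fold change of the 9 genes was -0.20, -0.02 and -0.18 in these comparisons, in that order, beside -0.03, 0.02 and -0.03 over all tested genes.

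The order of levels per length was led by the same genes in the 3 groups. In KO_1E7 the mean RPKM was 142 ± 2.96 for Ptgs2, 87.95 ± 11.1 for Ptges3, 11.5 ± 4.21 for Ptgs1, 8.57 ± 0.603 for Abcc4, 4.19 ± 0.707 for Slco2a1, 3.00 ± 0.324 for Ptges2, 1.18 ± 0.406 for Ptger4, 0.689 ± 0.166 for Ptger1 and 0.145 ± 0.0353 for Ptges (SD, n = 3). Ptgs1 and Abcc4 overlapped there, and the other neighbours did not. In CRISPR_1G2 the mean RPKM was 288 ± 214 for Ptgs2, 99.5 ± 5.51 for Ptges3, 18.1 ± 1.36 for Abcc4, 5.77 ± 1.15 for Ptgs1, 4.44 ± 0.781 for Ptges2, 0.713 ± 0.201 for Ptger1, 0.562 ± 0.0422 for Ptges, 0.425 ± 0.0487 for Ptger4 and 0.174 ± 0.0684 for Slco2a1. The ranges of Ptgs1 and Ptges2 overlapped, as did those of Ptger1 and Ptges. In parental the mean RPKM was 286 ± 254 for Ptgs2, 101 ± 10.3 for Ptges3, 16.5 ± 6.48 for Abcc4, 7.30 ± 1.24 for Ptgs1, 4.84 ± 0.688 for Ptges2, 1.79 ± 0.311 for Slco2a1, 0.590 ± 0.214 for Ptger1, 0.477 ± 0.116 for Ptger4 and 0.316 ± 0.0766 for Ptges. Ptgs2 and Ptges3 overlapped in parental, since parental 2 had 94.96 RPKM of Ptgs2, and so did the neighbours among Ptger1, Ptger4 and Ptges. By mean RPKM, Slco2a1 was thus the fifth of the genes in KO_1E7, the ninth in CRISPR_1G2 and the sixth in parental. Without the division by exon length, its KO_1E7 mean of 56.8 CPM was above those of Abcc4 (49.1 CPM) and Ptgs1 (44.8 CPM).

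**Figure D4:**
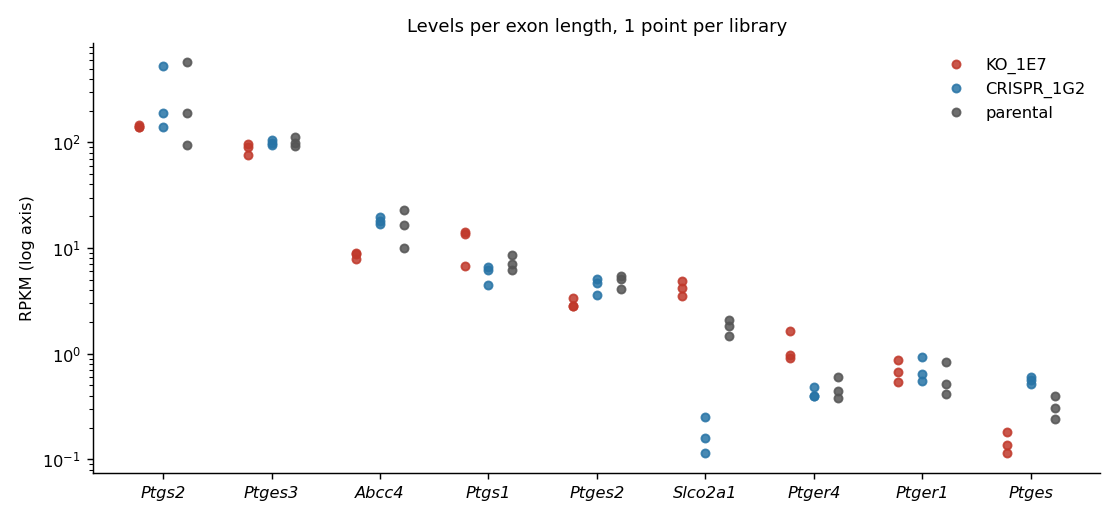
Level per exon length in RPKM (logarithmic y axis) of the 9 tested genes, with 1 point per library, KO_1E7 left, CRISPR_1G2 in the middle and parental right within each gene. Ptgs2 and Ptges3 lie at 75.6 RPKM or more in all libraries, and Slco2a1 spans from 0.115 RPKM in CRISPR_1G2 to 4.90 RPKM in KO_1E7.

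The rest of the arachidonate pathway was counted over 35 other listed genes, of which 22 were tested. In KO_1E7 against parental 0 were called higher and 1 lower (Ptgr1), in CRISPR_1G2 against parental 0 and 0, and in KO_1E7 against CRISPR_1G2 1 higher (Ptgr2) and 2 lower (Ptgr1 and Alox15). Beside the 5.42%, 0.254% and 12.7% of all tested genes called in either direction in these comparisons, the shares of the 22 are near the background. The medians of the log2 fold change were 0.06, -0.05 and 0.15 in that order. For the count of 0 in CRISPR_1G2 against parental, 3 genes had an unadjusted p below 0.05 in edgeR, all higher, and DESeq2 called 1, where over all tested genes 7.73% had such a p and DESeq2 called 1.5%. Alox15, which encodes a lipoxygenase acting on arachidonic acid, had few counts: 5, 6 and 1 in KO_1E7, 10, 34 and 11 in CRISPR_1G2, and 10, 4 and 4 in parental. CRISPR_1G2 2 was the high library. Its log2 fold change in KO_1E7 against CRISPR_1G2 was -2.57 ± 0.70 (edgeR adjusted p = 0.0455), a call that was kept without parental 3 and without CRISPR_1G2 3 and was lost without any other library (adjusted p up to 0.164).

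In the lists with no called gene, the most abundant gene of each is given. Pla2g4a, which encodes the cytosolic phospholipase A2 that frees arachidonic acid, stood at 235, 216 and 271 CPM in KO_1E7, 187, 164 and 239 CPM in CRISPR_1G2, and 249, 189 and 298 CPM in parental. The groups overlapped, and the log2 fold change was -0.03 ± 0.20 in KO_1E7 against parental (edgeR adjusted p = 0.951). Akr1b3, an aldo-keto reductase gene, averaged 125 ± 14.7 CPM in KO_1E7, 152 ± 30.3 CPM in CRISPR_1G2 and 140 ± 26.7 CPM in parental, with a log2 fold change of -0.16 ± 0.20 in KO_1E7 against parental (edgeR adjusted p = 0.663). Abcc1, which encodes another ABC exporter, averaged 104 ± 18.7 CPM in KO_1E7, 143 ± 10.2 CPM in CRISPR_1G2 and 142 ± 6.84 CPM in parental. Its log2 fold change was -0.45 ± 0.15 in KO_1E7 against parental (edgeR adjusted p = 0.108) and -0.46 ± 0.15 in KO_1E7 against CRISPR_1G2 (0.0744), and neither passed.

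**Figure D5:**
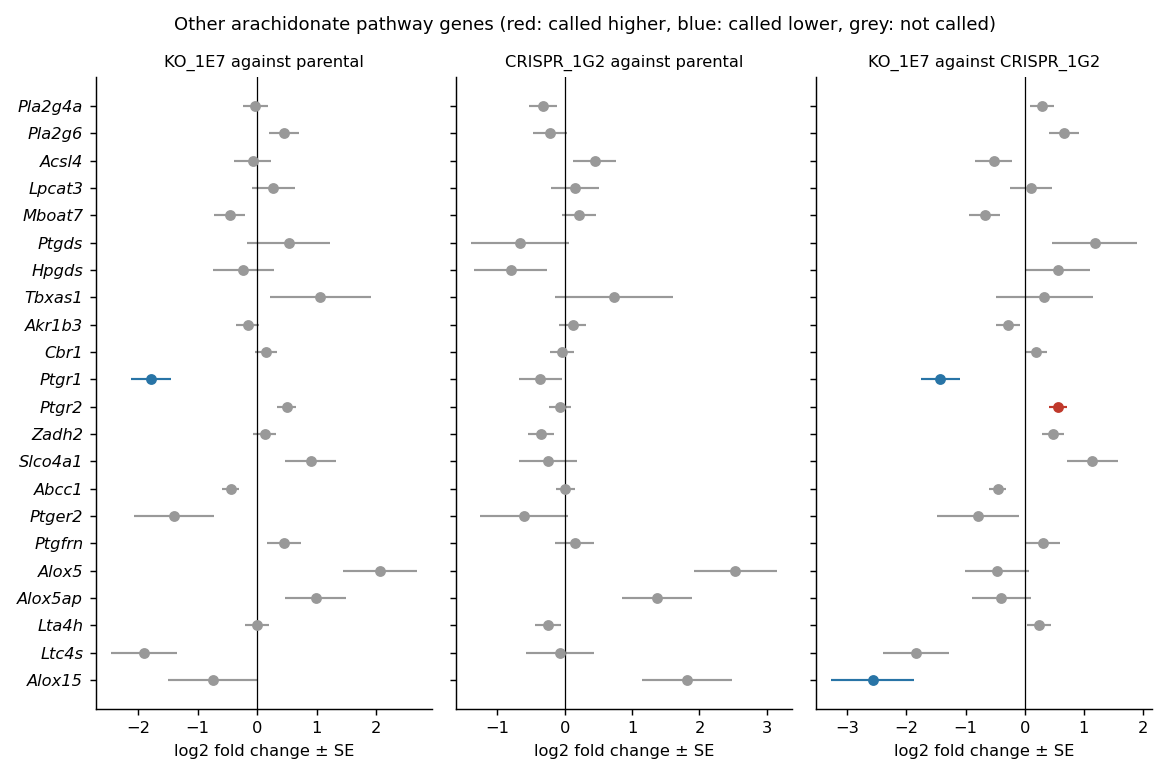
Log2 fold change (x axes, bars ± 1 SE from edgeR, 3 libraries per group) of the 22 tested genes among the other arachidonate pathway genes, with red and blue for genes called higher and lower and grey for those not called. Ptgr1 is called lower in KO_1E7 against parental (-1.79) and against CRISPR_1G2 (-1.42), and 0 genes are called in CRISPR_1G2 against parental.

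Some genes followed the called genes closely across the 9 libraries, by Pearson's r of log2 CPM and given as a description, since the points share libraries and groups. Those most like Slco2a1 were Il33 (r = 0.989), Igsf3 (0.988) and Gm26849 (0.985). Il33, which encodes the cytokine interleukin-33, averaged 106 CPM in KO_1E7, 2.37 CPM in CRISPR_1G2 and 32.7 CPM in parental, the same order as Slco2a1. Those most like Ptger4 were Slc25a23 (0.978), Gm5148 (0.976) and Sdf4 (0.973). Those most like Ptges were Dnajb6 (0.986), Ambra1 (0.980) and Garnl3 (0.979). Those most like Abcc4 were Slc4a11 (0.977), Cldn23 (0.966) and Dusp1 (0.966). Immune markers were low, with a summed level of 41.4 to 49.0 CPM in KO_1E7, 31.2 to 69.4 CPM in CRISPR_1G2 and 20.8 to 45.0 CPM in parental, most of it Cd14, while the T cell marker Cd3e had 0 counts in all libraries but parental 3, which had 1. Endothelial markers summed to 0.627 to 1.23 CPM in KO_1E7, 0.581 to 1.40 CPM in CRISPR_1G2 and 0.718 to 1.36 CPM in parental. In such bulk samples, fewer cells expressing a gene and less RNA per cell cannot be told apart.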

How the data were processed

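RNA was extracted from frozen cell pellets and oligo-dT libraries were made with a NEBNext Ultra II kit, a chemistry without strand marking, per the labels' protocols. The submitters' processing notes name bcl2fastq 2.17, STAR 2.5.2b, featureCounts of Subread 1.5.2, DESeq2 and the build GRCm38. For the annotation release and the strand setting, none is given in the sources used here. The authors deposited whole-number counts per gene for each library, with gene coordinates and exon lengths, per the file headers.

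From these counts, 92 spike-in rows (0.344% to 0.820% of counts) were removed. The main test was edgeR 4.0.16 (R 4.3.3): TMM, filterByExpr, robust quasi-likelihood F-test, 3 groups in 1 fit over 9 libraries, Benjamini-Hochberg over 15766 genes, called at 0.05. RPKM used the deposited exon lengths. Alternatives were DESeq2 1.42.0, RLE size factors, other filters, libraries left out, and terms for replicate number, NSG or the name in the header, the last chosen after seeing the data. The fit was tested on simulated counts with 1 spread for all genes and no library that stood apart, unlike these data. In KO_1E7 against parental it recovered 61% of 100 changes of log2 size 1 and 100% of 100 changes of log2 size 2, with 8 false calls. A change near log2 size 1 that was not called may thus have been missed.

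The genes and lists were chosen with earlier results of these data known. Named genes were the 10 genes, other pathway genes called in a comparison or else the most abundant of a list, and the 3 genes most correlated with each called gene. Intervals and count limits cover counting error only. Between 27898705 and 51878289 counts per library, a limit of 3 counts is 0.0568 to 0.109 CPM. All pairs of libraries within a group differed by more than sampling noise (chi-square per gene 8.84 to 765), so 9 libraries were counted. Pairs between groups were not compared in this way. One result on Ptger1 is not reported here.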

Additional observations from a re-analysis of the deposited data

Results flagged for a closer look

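The effects of the clones against the same parental libraries differed by the direct comparison of KO_1E7 with CRISPR_1G2 for 4 genes. Of all tested genes 12.7% were called in that comparison, and the list was chosen on these same levels, so nothing is read from the count. The groups did not overlap for 34.4% of all tested genes in KO_1E7 against parental and 13.1% in CRISPR_1G2 against parental. For Slco2a1 the log2 fold change between the clones was 4.59 (edgeR adjusted p = 0.000252), with KO_1E7 above parental and CRISPR_1G2 below it in 3 of 3 libraries each. For Ptges it was -1.94 (edgeR adjusted p = 0.00697), with KO_1E7 below parental and CRISPR_1G2 above it in 3 of 3 libraries each. For Abcc4 it was -1.08 (edgeR adjusted p = 0.0301) and for Ptger4 1.47 (edgeR adjusted p = 0.0171). For both of these the CRISPR_1G2 libraries overlapped those of parental and the KO_1E7 libraries did not. Of 20 alternatives, 7 lost the Abcc4 call, 3 lost the Ptger4 call and 0 lost the call of Slco2a1 or Ptges.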

How the results depend on the processing

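Over the 9 tested genes, 3 comparisons and 20 alternatives, 468 fold changes kept their direction and side of the threshold, 28 passed it newly, 27 no longer passed and 17 reversed, all 17 of them not called. The number of genes called in KO_1E7 against parental, 2 of 9, was 5 with DESeq2, 1 without a filter, 1 with only the 2 groups compared, 5 without parental 3, CRISPR_1G2 3 and KO_1E7 2, 4 with a term for NSG, and 0 to 3 leaving out 1 library. In KO_1E7 against CRISPR_1G2, 4 of 9, it was 2 to 4 leaving out 1 library, and in CRISPR_1G2 against parental 1 under all of these. Of the other pathway genes, the 1 called in KO_1E7 against parental was 3 with DESeq2, 3 without the third library of each group, 3 without parental 3 and CRISPR_1G2 3, 5 without KO_1E7 2 as well, 4 with a term for NSG and 0 to 2 leaving out 1 library. The 3 in KO_1E7 against CRISPR_1G2 were 5, 4, 8, 9, 6 and 0 to 4 in that order, 0 without a filter and 1 with 2 groups. The 0 in CRISPR_1G2 against parental was 1 with DESeq2 and 0 to 0 leaving out 1 library. Over all genes the 854, 40 and 2010 called (KO_1E7 against parental, CRISPR_1G2 against parental, KO_1E7 against CRISPR_1G2) were 2358, 235 and 3374 with DESeq2 and 24 to 1998, 15 to 71 and 453 to 2332 leaving out 1 library. Where the cause of such a change is not a smaller number of genes or libraries, the cause was not tested.

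Ptgs2 in KO_1E7 against parental was 0.018 without parental 3, with leaving out 1 library giving -1.41 to 0.018, 0.026 without the third libraries and 0.0077 without parental 3 and CRISPR_1G2 3. In CRISPR_1G2 against parental, Ptgs2 was -0.017 with a filter of 1 CPM. Leaving out 1 library gave -0.79 to 1.02 for Ptgs2, -0.24 to 0.012 for Ptges2, -0.093 to 0.061 for Ptges3, -0.12 to 0.44 for Abcc4 and -0.31 to 0.046 for Ptger4. Ptger1 in KO_1E7 against CRISPR_1G2 was -0.24 to 0.21 leaving out 1 library, 0.24 without the third libraries, 0.21 without parental 3 and CRISPR_1G2 3, and 0.36 without KO_1E7 2 as well.

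The replicate numbers do not pair all of the libraries. Deviations of same-numbered libraries correlated at -0.0034, 0.056 and 0.153 between KO_1E7 and parental and 0.243, 0.469 and 0.647 between CRISPR_1G2 and parental. Between the clones they correlated at -0.0497, 0.127 and 0.0727. The third libraries, which are NSG-named, correlated best with the third library of each other group. Not every other library correlated best with its own number. With a replicate block the genes called were 3, 1 and 5 of 9 in the 3 comparisons, those of the other pathway 3, 0 and 5, and all genes called in KO_1E7 against parental 1298. A block for the name in the header was added after the data were seen. It joins parental 1 with KO_1E7 1, parental 2 with CRISPR_1G2 1 (correlation of deviations 0.540) and the NSG-named libraries, leaving 2 residual degrees of freedom. With it, 4, 1 and 5 of 9 genes and 2, 0 and 3 other pathway genes were called, and 1855 of all genes in KO_1E7 against parental. The calls of Alox15 (adjusted p = 0.0658) and Ptgr2 (0.0713) in KO_1E7 against CRISPR_1G2 were lost.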
